A study of Mus musculus with 13 samples.

Results

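Bdnf, Ntf3, Ntrk2, Ntrk3, Ngfr and Sort1, 6 genes of the neurotrophin system, were followed through the lung transcriptomes of mice with bleomycin-induced pulmonary fibrosis (PF). They were taken by symbol from the 20270 genes listed in the count and TPM tables of the series. The family was picked because Bdnf was lower in the CB1R KO libraries while bleomycin alone had not raised it, so the levels of Bdnf are given as a description, with no test. The other 5 members are its relatives and receptors, and they were tested. All 6 passed the filter on low counts, among 15315 genes that did.

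RNA of the lower right lung lobe gave 13 libraries, taken as 13 adult mice. There were 4 C57BL/6J control mice and 5 wildtype (WT) C57BL/6J mice given bleomycin. The other 4 were Cnr1-/- mice given bleomycin (CB1R KO, a deletion of the cannabinoid receptor 1 in the whole animal, on the same background). The C57BL/6J mice were male. A single oropharyngeal dose of 1 U per kg was given, and the lungs of the treated mice were taken at day 14. Controls received saline according to the study's methods. Untreated CB1R KO mice were not analysed here, so in the comparison of the last 2 groups a standing difference of the genotype and a different response to bleomycin cannot be told apart. Each library is taken as 1 mouse and keeps its number. WT bleomycin 4 and 4-B2 share the number 4, and the labels do not say what B2 stands for. Control libraries are 3, 21, 24 and 26. The WT bleomycin set is 4, 2, 5, 4-B2 and 7, and CB1R KO bleomycin is 8, 9, 10 and 11.

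Neurotrophins are small secreted proteins made as longer proneurotrophins, which are cut to the mature form inside the cell by furin and other proprotein convertases or outside it by plasmin and matrix metalloproteinases. The mature ligands signal through Trk receptor tyrosine kinases: BDNF and neurotrophin-4 (the mouse gene is Ntf5) through TrkB, encoded by Ntrk2, and neurotrophin-3 (Ntf3) mainly through TrkC, encoded by Ntrk3. All 3 bind the p75 receptor (Ngfr), which, together with the co-receptor sortilin (Sort1), also binds the uncleaved forms. In the lung, BDNF has been described in airway smooth muscle, epithelium and nerves. Transcripts of Bdnf start from several alternative first exons, and Ntrk2 and Ntrk3 make both full-length receptors and truncated ones without the kinase. The values here are sums over all protein-coding transcripts of a gene and do not separate them.

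Depth was 14615904 to 16662580 estimated counts in 12 of the 13 libraries and 53463884 in CB1R KO 11. Cnr1 was counted in every library, at a CPM (counts relative to library size, scaled by TMM) of 1.62 to 4.10 in control, 3.46 to 6.97 in WT bleomycin and 2.47 to 5.63 in the libraries labelled CB1R KO. Its difference between the last 2 groups did not pass the test (edgeR's quasi-likelihood test, log2 fold change -0.53, standard error 0.28, adjusted p = 0.367). Which exons gave these reads cannot be read from gene totals, so every direction below rests on the labels. Labels of control 26 and of WT bleomycin 4-B2 and 7 are written with capitals and all others in lower case. No source used here says what that style stands for, and values within it are given where they differ. Markers of lung epithelium summed to between 20300 and 40000 CPM, as the label of lung tissue says.

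The promoter sequences of the 3 members whose levels separated groups are shown for context, because Bdnf in particular is known for a promoter that responds to CREB-family factors through a cyclic AMP response element. RefSeq windows of the GRCm38.p6 build, 300 bases from 250 before to 50 after a transcription start, were found for 4 of the 6 members. There were 7 for Bdnf, 2 for Ntf3 and 1 each for Ntrk2 and Ngfr. Each was searched on both strands for TGACGTCA, the full element, and for TGACG, the shorter core that lies within it. The core was found in 1 of these 11 windows, as its reverse complement CGTCA in Bdnf window 3, with its first base at -35 from the start, and the full element in none. Over all 32851 windows of the table, 20.8% hold the core and 1.79% the full element, so the match describes the letters only. The 250 bases before the start are printed 5′ to 3′ with the match in capitals. Bdnf window 3 lies at chr2:109692186-109692435 on the plus strand, Ntf3 window 1 at chr6:126166745-126166994 on the minus strand and the Ntrk2 window at chr13:58806319-58806568 on the plus strand.
Bdnf window 3: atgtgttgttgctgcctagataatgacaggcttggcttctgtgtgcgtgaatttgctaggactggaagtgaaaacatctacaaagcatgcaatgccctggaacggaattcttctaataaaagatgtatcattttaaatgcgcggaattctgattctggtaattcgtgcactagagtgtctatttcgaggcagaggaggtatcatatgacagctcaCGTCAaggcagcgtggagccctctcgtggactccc
Ntf3 window 1: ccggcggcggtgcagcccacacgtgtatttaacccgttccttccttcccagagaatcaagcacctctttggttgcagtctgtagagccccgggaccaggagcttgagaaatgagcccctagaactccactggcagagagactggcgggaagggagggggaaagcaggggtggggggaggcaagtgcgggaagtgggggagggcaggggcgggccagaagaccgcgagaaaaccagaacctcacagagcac
Ntrk2 window: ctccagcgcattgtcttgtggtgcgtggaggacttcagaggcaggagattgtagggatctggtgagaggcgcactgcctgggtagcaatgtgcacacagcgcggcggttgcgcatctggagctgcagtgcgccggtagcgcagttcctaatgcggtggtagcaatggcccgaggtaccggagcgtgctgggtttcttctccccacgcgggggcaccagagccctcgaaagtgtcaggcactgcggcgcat

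Bdnf was lower in each of the 4 libraries labelled CB1R KO than in any other. Its level was 28.8, 34.4, 39.1 and 33.4 CPM in control 3, 21, 24 and 26. It was 30.4, 26.4, 32.4, 30.5 and 28.6 CPM in WT bleomycin 4, 2, 5, 4-B2 and 7, and 18.8, 20.8, 18.1 and 17.9 CPM in CB1R KO 8, 9, 10 and 11. Control and WT bleomycin overlapped, and the highest library labelled CB1R KO lay below the lowest of the other 9. The group means, in the same order, were 33.9 ± 4.20 (SD, n = 4), 29.65 ± 2.24 (SD, n = 5) and 18.9 ± 1.34 CPM (SD, n = 4). On the log2 scale Bdnf differed by -0.65 (standard error 0.09) between CB1R KO and WT bleomycin, which is 36.4% lower, and by -0.19 (standard error 0.09), 12.6% lower, between WT bleomycin and control. Against control Bdnf was 44.4% lower in CB1R KO bleomycin. These 3 values describe the pattern that the gene was picked for. The difference between WT bleomycin and control was -0.12 without control 24 and -0.26 without control 3. Over the 24 alternative settings the difference between CB1R KO and WT bleomycin stayed between -0.70 and -0.55, and among lower-case labels alone it was -0.66. Each library held at least 288 estimated counts of Bdnf.

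**Figure D1:**
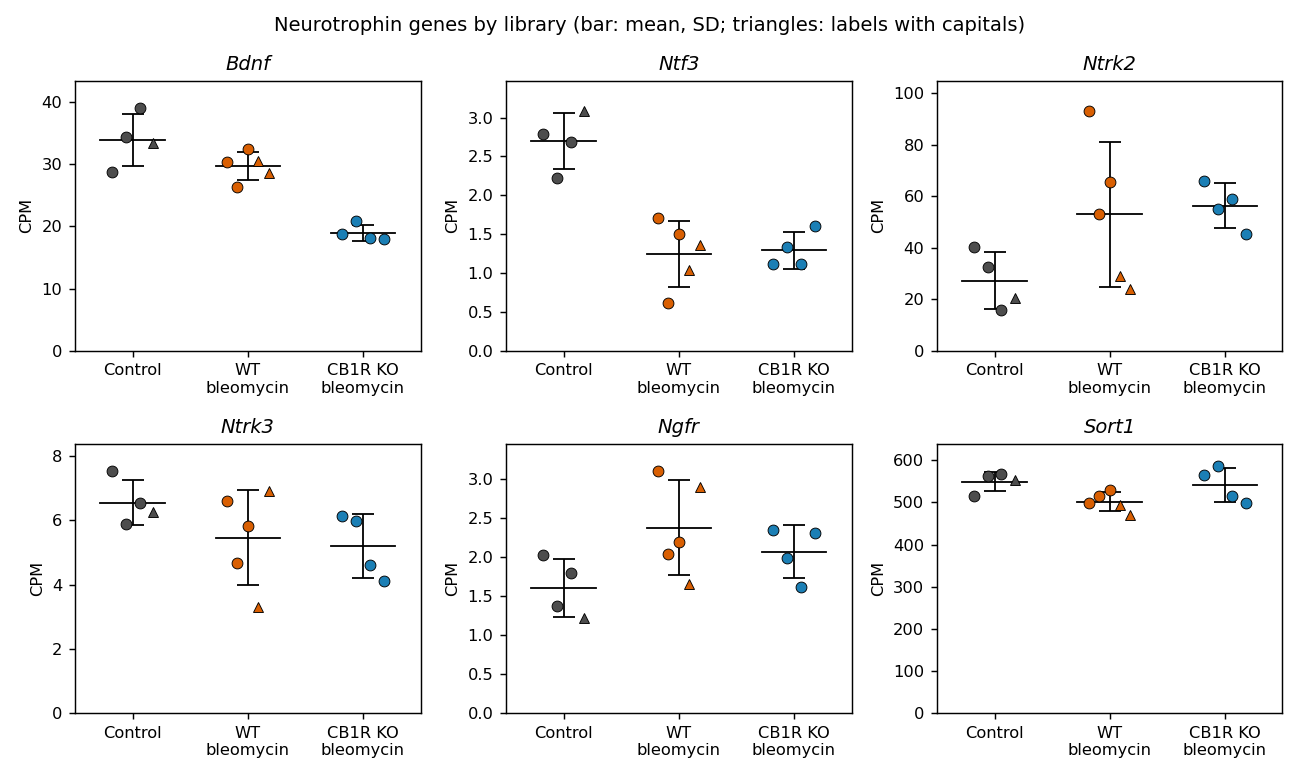
Each point is 1 library, with CPM scaled by TMM on the vertical axis starting at 0, a line and bar for the mean and SD of each group, and triangles for the 3 libraries whose labels carry capitals. Bdnf is below 21 CPM in all 4 libraries labelled CB1R KO and above 26 in the other 9, Ntf3 is lower in both bleomycin groups than in control, and Ntrk2 ranges from 24.1 to 93.1 CPM within WT bleomycin.

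Ntf3, which encodes the ligand of TrkC, had lower levels in both bleomycin groups than in the wildtype controls. Its level was 2.79, 2.22, 2.69 and 3.09 CPM in control 3, 21, 24 and 26. In WT bleomycin 4, 2, 5, 4-B2 and 7 it was 1.71, 0.618, 1.50, 1.04 and 1.36, and in CB1R KO 8, 9, 10 and 11 it was 1.11, 1.33, 1.12 and 1.61 CPM. Every control library was above every bleomycin library, and both bleomycin groups overlapped. The log2 fold change was -1.11 in WT bleomycin against control (standard error 0.26, adjusted p = 0.0025, edgeR's quasi-likelihood test), a level 53.7% lower, and -1.03 in CB1R KO bleomycin against control (standard error 0.27, adjusted p = 0.008, same test). Of all genes tested, 48.9% were called in the first of these comparisons, 23.9% as lower and 25.0% as higher. In CB1R KO bleomycin against control it was 35.4%, 16.3% as lower and 19.0% as higher. Both comparisons use the same 4 controls. Between CB1R KO and WT bleomycin Ntf3 differed by 0.08 on the log2 scale (95% confidence interval -0.49 to 0.65, adjusted p = 0.904, edgeR). Its estimated counts were low, from 10 in WT bleomycin 2 to 48 in control 26, with 87 in the deeper library CB1R KO 11.

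Ntf5 encodes the second ligand of TrkB and was taken with the other family genes. The level of Ntf5 was 5.28 to 6.40 CPM in control, 5.74 to 9.90 in WT bleomycin and 7.27 to 9.65 in CB1R KO bleomycin. Its level exceeded control in WT bleomycin by 0.47 on the log2 scale (standard error 0.16, adjusted p = 0.0224, edgeR), opposite to Ntf3, with WT bleomycin 7 inside the control range. In CB1R KO bleomycin it was also higher than in control by 0.47 (standard error 0.16, adjusted p = 0.0362, edgeR), and the difference between CB1R KO and WT bleomycin was 0.00 (95% confidence interval -0.32 to 0.32).

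Per transcript length, Bdnf held a smaller part of the ligand transcripts in the libraries labelled CB1R KO. TPM, the deposited values that take transcript length into account, allow levels of different genes to be compared. Bdnf averaged 12.5 TPM in control, 11.2 in WT bleomycin and 7.37 in the libraries labelled CB1R KO. Ntf5 averaged 4.98, 7.05 and 7.41 TPM in the same order, and Ntf3 3.22, 1.52 and 1.62. The ratio of Bdnf to Ntf5, the TrkB ligands, ran from 2.05 to 2.82 in control, from 1.40 to 2.23 in WT bleomycin and from 0.932 to 1.11 in the libraries labelled CB1R KO. Bdnf was therefore the more abundant of the pair in all 9 other libraries, and in the libraries labelled CB1R KO both stood at about the same level. Of the summed TPM of Bdnf, Ntf3 and Ntf5, the share of Bdnf was 60.3% ± 3.44 (SD, n = 4) for control, 57.0% ± 3.54 (SD, n = 5) for WT bleomycin and 45.03% ± 2.16 (SD, n = 4) for CB1R KO bleomycin. These shares contain Bdnf and carry no test. Since Ntf3 was low in both bleomycin groups, the ratio of Bdnf to Ntf3 was higher in WT bleomycin, 5.63 to 13 against 3.23 to 4.79 in control. It was 3.56 to 5.12 in the libraries labelled CB1R KO, which overlapped control.

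**Figure D2:**
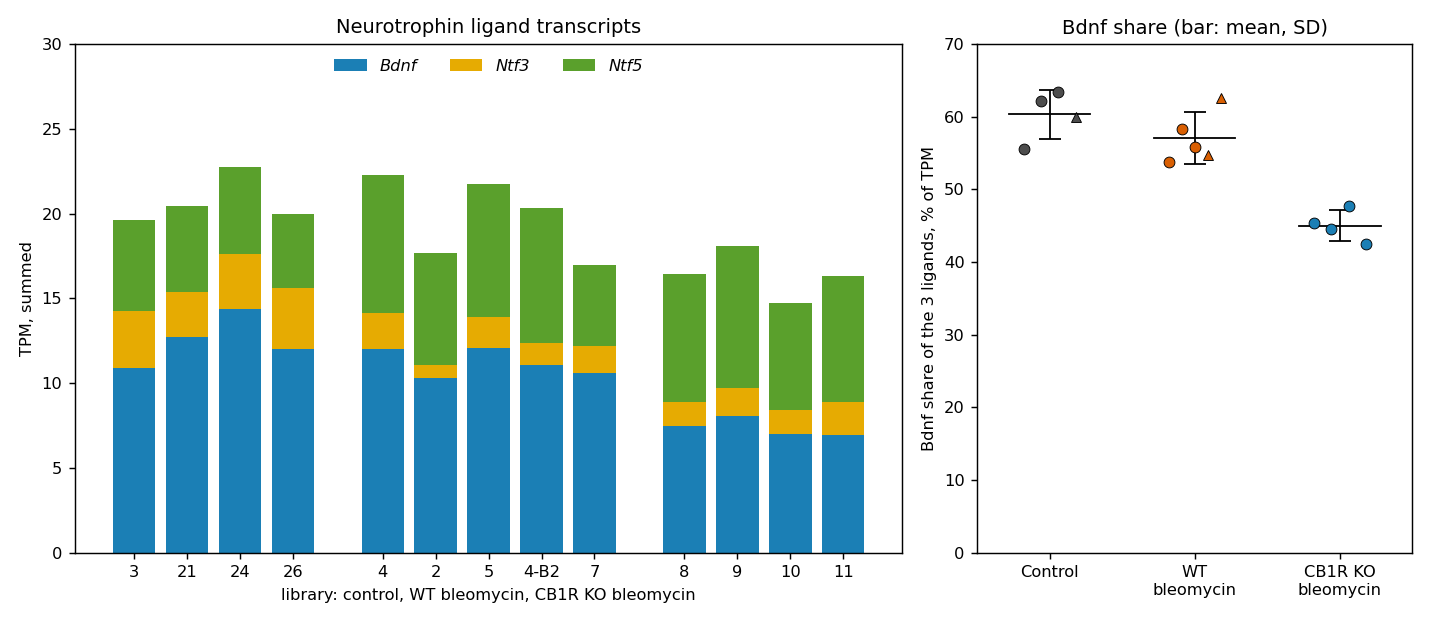
Left, stacked bars give the TPM of Bdnf, Ntf3 and Ntf5 in each library, with control, WT bleomycin and CB1R KO bleomycin from left to right, and right, points give the share of Bdnf in that sum with the mean and SD of each group. The share runs from 55.6 to 63.4% in control, from 53.8 to 62.6% in WT bleomycin and from 42.5 to 47.7% in the libraries labelled CB1R KO.

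Ntrk2, the gene of TrkB, rose with bleomycin but varied widely among WT mice. Its level was 40.1, 32.5, 15.7 and 20.6 CPM in control 3, 21, 24 and 26, and 93.1, 52.9, 65.6, 29.0 and 24.1 CPM in WT bleomycin 4, 2, 5, 4-B2 and 7. In CB1R KO 8, 9, 10 and 11 it was 66.0, 54.9, 59.1 and 45.2 CPM. WT bleomycin 2, 4 and 5 were above all controls and the other 2 within the control range, whereas all 4 libraries labelled CB1R KO were above all controls. The log2 fold change was 0.96 in WT bleomycin against control (standard error 0.35, adjusted p = 0.0363, edgeR's quasi-likelihood test) and 1.04 in CB1R KO bleomycin against control (standard error 0.37, adjusted p = 0.0393, same test). Both calls are close to the threshold. The first is lost without WT bleomycin 2, 4 or 5 or without control 24 or 26, and without WT bleomycin 4 its log2 fold change is 0.65 (adjusted p = 0.108, edgeR). The second is lost without control 21, 24 or 26 or without CB1R KO 8, 9 or 10, and without control 24 it is 0.85 (adjusted p = 0.108, edgeR).

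The WT bleomycin libraries within the control range, 4-B2 and 7, are those whose labels carry capitals. Among lower-case labels Ntrk2 averaged 29.4 CPM in control (n = 3), 70.5 in WT bleomycin (n = 3) and 56.3 in CB1R KO bleomycin (n = 4), and among labels with capitals 20.6 in the 1 control and 26.6 in the 2 WT bleomycin libraries. Fitted on lower-case labels alone, the rise in WT bleomycin was 1.26 on the log2 scale (standard error 0.29, adjusted p = 0.00577, edgeR), and with the style of the label as a term it was 0.996 (standard error 0.25, adjusted p = 0.00533, edgeR). The part of the label style in the spread of Ntrk2 was not tested. Between CB1R KO and WT bleomycin Ntrk2 differed by 0.08 (95% confidence interval -0.64 to 0.81, adjusted p = 0.923, edgeR), an interval that holds both a lowering and a rise of more than 1.5 times. This difference turned to -0.33 among lower-case labels, again without passing the test (adjusted p = 0.711, edgeR).

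Bdnf and Ntrk2, ligand and receptor, stood in a different order in control and in the libraries labelled CB1R KO, and in either order in WT bleomycin. In control the TPM of Bdnf, 10.9 to 14.4, were above those of Ntrk2, 3.82 to 10.5, with no overlap. In the libraries labelled CB1R KO the TPM of Ntrk2, 13.2 to 16.7, were above those of Bdnf, 6.92 to 8.06, again with no overlap. In WT bleomycin Ntrk2 at 5.85 to 24.8 TPM overlapped Bdnf at 10.3 to 12.1. Ntrk2 was above Bdnf in WT bleomycin 4, 2 and 5 and below it in 4-B2 and 7, whose labels carry capitals. The order found in the libraries labelled CB1R KO was therefore not limited to them. Because Bdnf was picked for its low level in those libraries, the comparison of the pair is a description and carries no test. Sort1 was the most abundant member in every group, with a mean of 116 TPM in control. In control the order after Sort1, Bdnf and Ntrk2 was Ntf3 at 3.22, Ntrk3 at 1.47 and Ngfr at 0.698 TPM, and the ranges of these 3 genes did not overlap.

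Ntrk3, which encodes TrkC, the receptor for the product of Ntf3, had a level of 5.89 to 7.55 CPM in control, 3.32 to 6.91 in WT bleomycin and 4.13 to 6.15 in CB1R KO bleomycin. The groups overlapped. Its log2 fold change was -0.26 in WT bleomycin against control (95% confidence interval -0.69 to 0.17, adjusted p = 0.305, edgeR), -0.08 between CB1R KO and WT bleomycin (-0.52 to 0.35, adjusted p = 0.866) and -0.34 in CB1R KO bleomycin against control (-0.79 to 0.11, adjusted p = 0.222). In TPM the lowest WT bleomycin library in CPM, 4-B2, was less far from the others, at 1.15 against 1.30 to 1.56. The counts behind 1 unit of TPM, which follow the effective length of the transcripts that Kallisto assigned reads to, varied 1.88 times between libraries for Ntrk3. They were lowest in WT bleomycin 4-B2 and 2, at 0.647 and 0.722 of the gene's mean over libraries, and highest in CB1R KO 8, at 1.22. The same spread was 1.19 times for Ntrk2, 1.05 for Ntf3 and 1.01 for Bdnf and Sort1, and its median over 10694 genes with at least 100 counts in every library was 1.06. Ntrk3 itself held 47.8 to 127 estimated counts in the 12 libraries of like depth, so its assignment to longer and shorter transcripts rests on few reads.

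**Figure D3:**
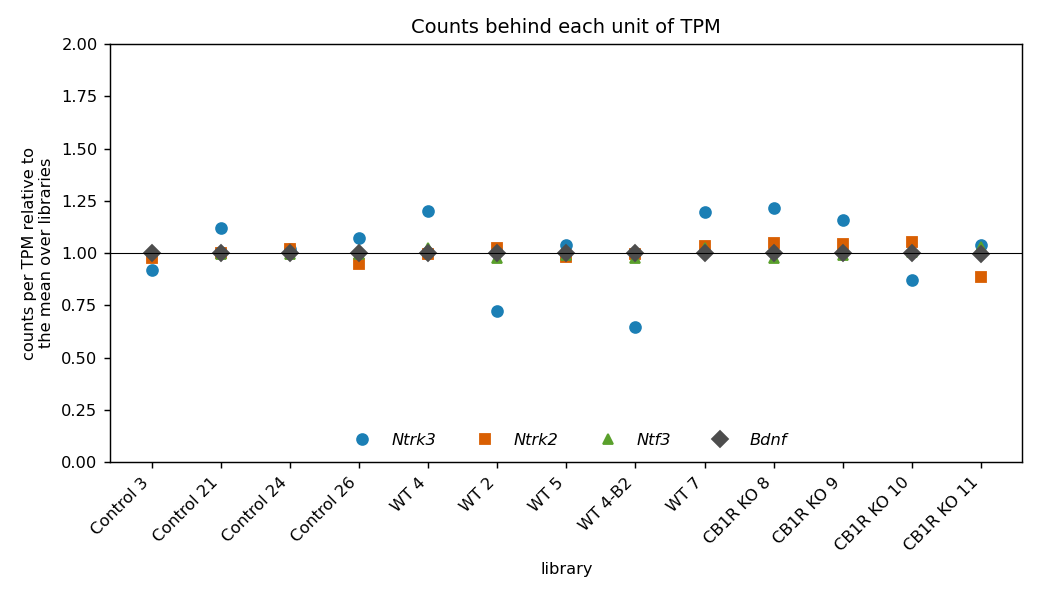
For Bdnf, Ntf3, Ntrk2 and Ntrk3, points give the estimated counts per unit of TPM in each of the 13 libraries, relative to the gene's mean over libraries, after the library's own median was removed. Bdnf lies at 1 in every library to within 0.004, whereas Ntrk3 ranges from 0.647 to 1.22 with no order by group.

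Ngfr, the gene of the p75 receptor, held 2.02, 1.38, 1.79 and 1.22 CPM in control 3, 21, 24 and 26. It held 3.10, 2.04, 2.19, 1.66 and 2.90 in WT bleomycin 4, 2, 5, 4-B2 and 7, and 2.35, 1.99, 1.62 and 2.31 in CB1R KO 8, 9, 10 and 11. The WT bleomycin libraries other than 4-B2 were above all controls. The difference missed the threshold (log2 fold change 0.57, standard error 0.24, adjusted p = 0.0619, edgeR). It was called when only genes with at least 10 counts in every library were tested (adjusted p = 0.0462, edgeR), without control 3 (adjusted p = 0.0429) and without WT bleomycin 4-B2 (adjusted p = 0.0313). For CB1R KO against WT bleomycin Ngfr differed by -0.19 (95% confidence interval -0.68 to 0.29, adjusted p = 0.707, edgeR).

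Sort1, whose product sortilin sorts proneurotrophins in the cell and pairs with p75 at its surface, overlapped between all groups. Its level was 516 to 567 CPM in control, 471 to 529 in WT bleomycin and 498 to 586 in CB1R KO bleomycin. Its log2 fold changes were -0.13 in WT bleomycin against control (95% confidence interval -0.26 to 0.00, adjusted p = 0.0965, edgeR), 0.11 between CB1R KO and WT bleomycin (-0.03 to 0.24, adjusted p = 0.399) and -0.02 in CB1R KO bleomycin against control (-0.16 to 0.12, adjusted p = 0.814). Of these intervals, that of WT bleomycin against control reaches farthest from 0, to -0.26.

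**Figure D4:**
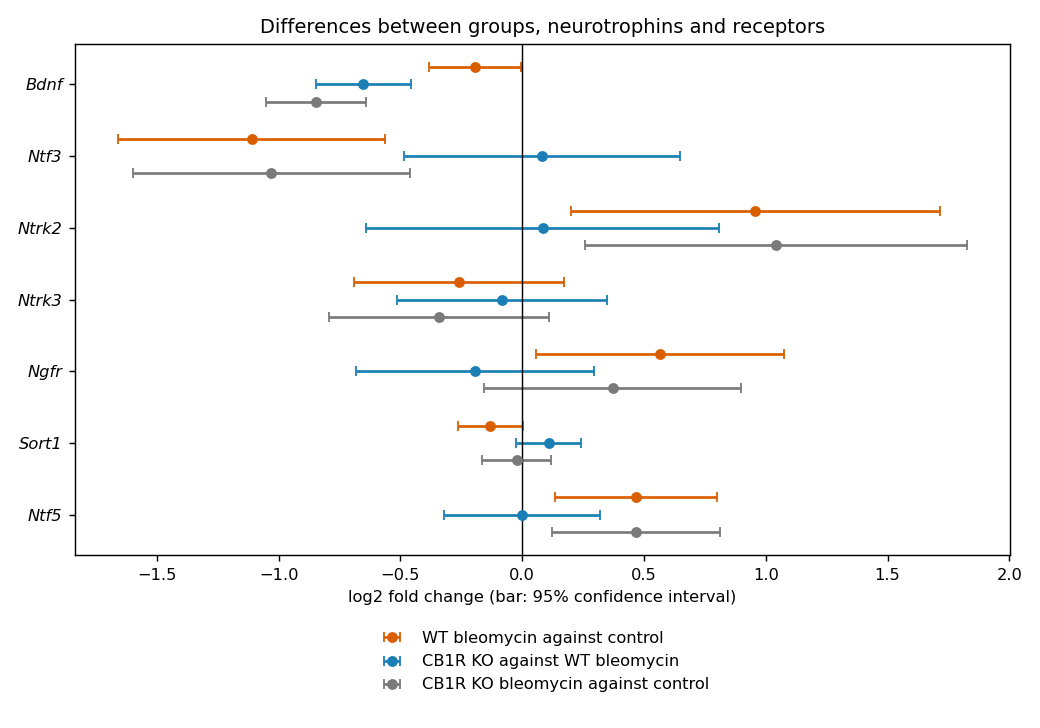
Points give the log2 fold change of each member, and of Ntf5, in the 3 comparisons, and bars its 95% confidence interval from edgeR. The values of Bdnf are a description, as the gene was picked on them, and the intervals of Ntrk2 are the widest shown.

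In the comparison of CB1R KO with WT bleomycin, none of the 5 members tested was called by edgeR, by DESeq2 or by limma, and none had an unadjusted p under 0.05 in edgeR. Over all genes tested 0.979% were called in this comparison, 0.359% as higher and 0.62% as lower in the libraries labelled CB1R KO. The 5 intervals differ in width, from that of Sort1 to that of Ntrk2, so the data limit a change of Sort1 far more closely than a change of Ntrk2.

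Other genes of the family were called in WT bleomycin against control and none in CB1R KO against WT bleomycin. Of 8, which are Ntf5, Sorl1, Sorcs1, Sorcs2, Sorcs3, Nradd, Lingo1 and Rtn4r, 6 could be tested. In WT bleomycin against control 4 rose and 1 fell, 83.3% of them against 48.9% over all genes, with a median log2 fold change of 0.42 against -0.01 over all genes. Sorcs2, a sortilin relative that binds p75 and proBDNF, rose by 1.49 on the log2 scale (standard error 0.10, adjusted p = 1.29e-07, edgeR), from 47.7 to 68.9 CPM in control to 145.9 to 169 in WT bleomycin. Rtn4r, the Nogo receptor, which signals together with p75 and Lingo1, rose by 2.20 (standard error 0.43, adjusted p = 0.000779, edgeR), from 0.128 to 0.180 CPM in control, a level of very few counts. Nradd, a relative of p75, rose by 0.37 (standard error 0.12, adjusted p = 0.0178, edgeR). Sorl1, another sortilin relative, fell by 0.49 on the log2 scale (standard error 0.08, adjusted p = 0.000197, edgeR). Lingo1 differed by 0.12 (adjusted p = 0.782, edgeR). In CB1R KO against WT bleomycin edgeR called 0 of the 6, against 3 at an unadjusted p under 0.05, 1 by DESeq2 and 0 by limma. The value of Sorcs2 there was -0.30 (standard error 0.10, adjusted p = 0.154, edgeR), without overlap between the groups, and that of Rtn4r -0.77 (adjusted p = 0.272, edgeR). Sorl1, the third of these, went the other way, at 0.28 (standard error 0.08, adjusted p = 0.102, edgeR), with groups that overlapped. In CB1R KO bleomycin against control 3 of the 6 rose and 0 fell, where 19.0% of all genes rose and 16.3% fell. Sorcs2 was among those that rose, by 1.19 (standard error 0.11, adjusted p = 2.99e-06, edgeR).

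Mmp3, Plat and Furin, enzymes from the list of proneurotrophin processing, had lower levels in CB1R KO than in WT bleomycin libraries. Of 14 such genes 10 were tested, 3 were called lower and 0 higher, where 0.62% of all genes were called lower. The median log2 fold change of the 10 was -0.40 against 0.00 over all genes. The list was chosen with earlier results of these data known, so its share and median are a description. Products of these 3 genes act on many proteins besides neurotrophins. Mmp3, a metalloproteinase that can cut proneurotrophins, differed by -1.06 (standard error 0.17, adjusted p = 0.0177, edgeR), with 24.4 to 36.2 CPM against 47.4 to 81.8. Plat, tissue plasminogen activator, which turns plasminogen into plasmin, differed by -0.47 (standard error 0.08, adjusted p = 0.0187, edgeR), with 72.7 to 94.2 against 113.6 to 126.7 CPM. Furin, the convertase that cuts proneurotrophins in the cell, differed by -0.36 (standard error 0.08, adjusted p = 0.0411, edgeR), with 177.2 to 210.7 against 211 to 274.9 CPM, groups that nearly touch.

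In WT bleomycin against control 7 of the 10 processing genes rose and 1 fell, where 25.0% of all genes rose and 23.9% fell. Mmp3 rose by 1.72, Plat by 1.11 and Furin by 0.69 on the log2 scale, and Mmp9 had a log2 fold change of -1.82 (standard error 0.35, adjusted p = 0.000696, edgeR). This comparison and that of CB1R KO with WT bleomycin share the 5 WT libraries, so a WT library that is high raises the first and lowers the second. Of the 24 alternatives for CB1R KO against WT bleomycin, Mmp3 and Plat were called in 20 each and Furin in 11. In CB1R KO bleomycin against control 4 of the 10 rose and 1 fell, where 19.0% of all genes rose and 16.3% fell. Plat was among those that rose, by 0.65 (standard error 0.08, adjusted p = 4.26e-05, edgeR). Plg, the gene of plasminogen itself, which is made mainly in liver, stayed at or under 0.119 CPM and was not tested.

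**Figure D5:**
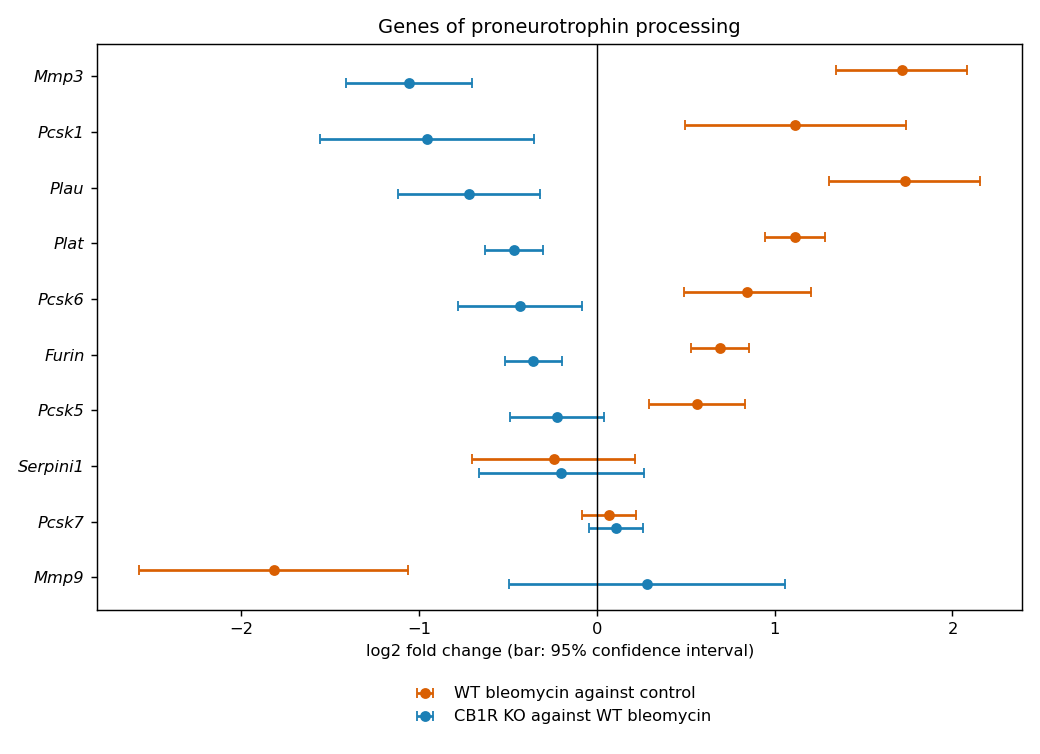
Points give the log2 fold change of the 10 tested genes of proneurotrophin processing, with 95% confidence intervals from edgeR, for WT bleomycin against control and for CB1R KO against WT bleomycin, which share the WT libraries. Mmp3, Plat and Furin lie above 0 in the first comparison and below 0 in the second, and Mmp9 is at -1.82 in the first.

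Adaptors and kinases downstream of the receptors were called in both directions in WT bleomycin. Of 40 Trk signalling genes tested, 10 rose and 12 fell in WT bleomycin against control, 55.0% of them against 48.9% over all genes, which is near the background. Shc4, an adaptor of the Shc family, rose by 3.17 on the log2 scale (standard error 0.27, adjusted p = 6.66e-07, edgeR) and Shc1, the adaptor that binds active Trk receptors, by 0.52 (standard error 0.04, adjusted p = 6.29e-07, edgeR). Gab1, a docking protein, had a log2 fold change of -0.62 and Rps6ka1, a kinase downstream of ERK, of -0.44. In CB1R KO against WT bleomycin edgeR called 0 of the 40, against 10 at an unadjusted p under 0.05, 2 by DESeq2 and 0 by limma. Of 21 genes of p75 signalling 7 rose and 1 fell in WT bleomycin, 38.1% of them and thus a smaller share than the 48.9% over all genes, with Bex3 (the p75-associated protein NADE) at 1.10 and the JNK gene Mapk9 at -0.26. Of the 21, 0 were called by edgeR in CB1R KO against WT bleomycin, 3 had an unadjusted p under 0.05, and DESeq2 and limma called 0.

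A list of 26 regulators of Bdnf transcription held transcription factors, cofactors, chromatin regulators and calmodulin-dependent kinases. Of the 26, 3 rose and 11 fell in WT bleomycin against control, where 25.0% of all genes rose and 23.9% fell. In either direction 53.8% of them were called against 48.9% over all genes. The 11 include the kinases Camk2a and Camk2b. Arnt2, a partner of the activity-dependent factor Npas4, had a log2 fold change of 2.01 and Crem, a CREB-family factor, of 0.57. Creb1, another CREB-family factor, fell, at -0.29 (standard error 0.07, adjusted p = 0.00429, edgeR). The cofactors Crebbp, Ep300 and Crtc2 fell too, at -0.28, -0.43 and -0.27, whereas Crtc1 and Crtc3 were not called. Between CB1R KO and WT bleomycin Creb1 differed by 0.25 (standard error 0.07, adjusted p = 0.106, edgeR), not called but without overlap between the groups. In CB1R KO against WT bleomycin 1 was called, with 2 by DESeq2 and 0 by limma. That gene was Nr3c1, the glucocorticoid receptor, which ranged from 229.7 to 257.2 CPM in control, from 156.6 to 184.5 in WT bleomycin and from 195.8 to 207.7 in the libraries labelled CB1R KO. It differed by 0.26 (standard error 0.06, adjusted p = 0.0441, edgeR) from WT bleomycin and by -0.28 from control, and it was called in 8 of the 24 alternatives. Of 13 tested genes of other neurotrophic factors, such as the GDNF and CNTF families and midkine, 5 rose and 2 fell in WT bleomycin, 53.8% against the same 48.9%. Midkine (Mdk) was at 1.51, artemin (Artn) at 1.20, the CNTF receptor Cntfr at -1.19 and the GDNF receptor Gfra1 at -0.36. EdgeR called 0 of the 13 between CB1R KO and WT bleomycin, against 1 at an unadjusted p under 0.05 and 0 by DESeq2 and limma.

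Over all 6 lists, 116 of 127 genes were tested. The lists were chosen with earlier results of these data known, so their shares are a description. In WT bleomycin against control 64 were called, 55.2% of those tested, with 36 higher and 28 lower, near the 48.9% called over all genes. In CB1R KO bleomycin against control 46 were called, 39.7%, near the 35.4% over all genes. In CB1R KO against WT bleomycin 4 were called, 3.45% against 0.979% over all genes. The 4 are Mmp3, Plat, Furin and Nr3c1, and edgeR called 0 to 8 genes when 1 library was left out. It called 0 without CB1R KO 8, 9 or 11, 2 without control 21 or 24 or without WT bleomycin 2, 4-B2, 5 or 7, and 8 without CB1R KO 10.

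Markers of cell types that could carry these genes were summed per library. In bulk tissue, fewer cells of a type and less RNA per cell cannot be told apart. The calls given are for CB1R KO against WT bleomycin, where 0.359% of all genes were called higher and 0.62% lower. Of 8 smooth muscle markers 2 were lower in CB1R KO than in WT bleomycin, and their sum was 837 to 1010 CPM in control, 875 to 1270 in WT bleomycin and 732 to 936 in CB1R KO bleomycin, which overlapped both other groups. Of 9 pericyte markers 0 were called by edgeR (3 at an unadjusted p under 0.05, 1 by DESeq2), and the sums were 564 to 636, 485 to 575 and 526 to 538 CPM. Of 8 platelet and megakaryocyte markers 0 were called in that comparison (1 at an unadjusted p under 0.05, 0 by DESeq2), with sums of 58.3 to 100 CPM in control, 22.4 to 30.3 in WT bleomycin and 24.0 to 34.1 in CB1R KO bleomycin. For nerve, 8 neuron markers summed to 54 to 75.7, 37.2 to 54.6 and 44.6 to 48.8 CPM, with Nefl under 0.1 CPM on average, 3 tested and 1 called lower. Of 8 Schwann cell markers, with Foxd3 under 0.1 CPM, 6 were tested and 0 called (0 at an unadjusted p under 0.05, 0 by DESeq2). Markers of capillary endothelium, with 0 of 8 called (2 at an unadjusted p under 0.05, 1 by DESeq2), summed to 1760 to 1960, 1010 to 1190 and 1230 to 1410 CPM. Their sums in WT and CB1R KO bleomycin did not overlap. Of 8 alveolar fibroblast markers 4 were called higher in CB1R KO than in WT bleomycin. The median log2 fold change of the 8 was 0.64, and their sums were 4360 to 4950, 1660 to 2250 and 1850 to 3130 CPM. Of 7 lung epithelium markers 2 were called higher, with sums of 20300 to 25000 CPM in WT bleomycin and 21800 to 29500 in CB1R KO bleomycin. Cardiac muscle markers, with 0 of 9 called by edgeR (7 at an unadjusted p under 0.05, 1 by DESeq2), summed to 739 to 1880, 127 to 494 and 502 to 896 CPM, and WT and CB1R KO bleomycin did not overlap. Of 5 adipocyte markers tested 0 were called by edgeR (4 at an unadjusted p under 0.05, 2 by DESeq2), and all 6 summed to 42.7 to 157, 15.0 to 79.2 and 36.1 to 148 CPM. Of the tested markers of type I cells (7), mesothelium (6), basal cells (4) and B and plasma cells (6), edgeR called 0, with 3, 1, 0 and 0 at an unadjusted p under 0.05 and 1, 1, 0 and 0 by DESeq2. The part of any of these cell types in the levels of Bdnf or Ntrk2 was not tested.

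Snapin, Pfdn5, Tigd5 and 2410002F23Rik were among the tested genes whose log2 CPM were most like those of Bdnf over the 13 libraries, with a Pearson r from 0.852 to 0.883. The likeness is a description, since the 13 libraries fall into 3 groups that Bdnf itself separates. After the group means were removed, r was 0.428 for Snapin, a SNARE-associated protein, 0.417 for the prefoldin subunit Pfdn5, 0.425 for Tigd5 and -0.132 for 2410002F23Rik. Mean levels in control, WT bleomycin and CB1R KO bleomycin were 41.4, 36.2 and 30.2 CPM for Snapin, 85.5, 76.2 and 67.4 for Pfdn5, and 5.43, 4.54 and 3.32 for Tigd5. For 2410002F23Rik they were 51.9, 51.0 and 40.5 CPM. These genes were picked for following Bdnf over the same libraries, so no test of their group differences is given.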

How the data were processed

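Oligo(dT)-selected lung RNA was made into NEBNext Ultra II libraries and read from both ends on a HiSeq. The authors quantified the reads with Kallisto (version not given in the sources used here) on the Ensembl mouse reference, named as GRCm39 in the submitters' processing notes, and deposited estimated counts and TPM, added up per gene symbol from its protein-coding transcripts. The estimated counts were deposited without normalization, whereas the deposited TPM are scaled by transcript length and library total. The table of TPM has 1 column that matches no sample, and it was not used. The table of each single sample, which stacks both units in 1 column, was not used either. How reads shared between transcripts are assigned by Kallisto affects Ntrk3 most, as shown by its counts per TPM.

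Groups follow the labels' treatment and genotype. Estimated counts were rounded, filtered with filterByExpr and scaled by TMM, and 13 libraries in 3 groups were fitted together in edgeR 4.0.16 under R 4.3.3 (quasi-likelihood test), with Benjamini-Hochberg adjustment over 15315 genes and a threshold of 0.05. CPM are TMM-scaled, and log2 CPM used a prior count of 2. Precision follows from 14615904 to 53463884 counts a library. Counting and animal variation enter the standard errors together. The procedure was tested on simulated data. The members, gene lists and markers were chosen with earlier results of these data known. Named genes were Cnr1, the members, the other family genes, list genes called between CB1R KO and WT bleomycin, per list up to 2 genes in each direction with the lowest p in WT bleomycin against control, and the 5 genes most correlated with Bdnf. A few list genes outside these rules, such as Camk2a, Camk2b, Creb1 and Plg, are also named. Some genes of these lists and rules are not reported here, and they enter no list count. Creb-type motifs were searched in RefSeq promoter windows of GRCm38.p6, another build than the authors' one. The window coordinates printed above are of GRCm38.p6, and no other gene coordinates are given.

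Results were recomputed unfiltered, with a minimum of 10 counts per library, with RLE or upper-quartile scaling, with DESeq2 1.42.0, with limma 3.58.1 on log2(TPM + 1) and log2(TPM + 0.1), with edgeR on 2 groups, with label style as a term, among lower-case labels, with CB1R KO 11 thinned to the median depth of its group's other libraries, and without each of 13 libraries in turn. Tables and plots used Python 3.11.15, pandas 2.3.3, numpy 2.4.6 and matplotlib 3.10.9. Transcript isoforms, time course and metabolites were not analysed here.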

Additional observations from a re-analysis of the deposited data

How the results depend on the processing

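No paired analysis was possible because the groups share no replicate numbers. Over 24 alternatives, 460 of 504 recomputed values held. For the tested members this meant the same direction and side of the threshold, and for counts a value within 1.5 times. For Bdnf it meant the same direction and a shift smaller than the SD within groups of its log2 CPM. Bdnf, given without a test, was -0.69 between CB1R KO bleomycin and control with limma on log2(TPM + 1), a scale that understates changes of low genes, against -0.85, and it stayed below 0 in all alternatives of all 3 comparisons. Ntrk2 in WT bleomycin against control lost its call with edgeR on the 2 groups (0.96, adjusted p = 0.0624) and with limma on log2(TPM + 0.1) (0.88, adjusted p = 0.0715) and on log2(TPM + 1) (0.80, adjusted p = 0.0733), and ran from 0.65 to 1.21 with 1 library left out. In CB1R KO bleomycin against control it ran from 0.85 to 1.29. Between CB1R KO and WT bleomycin, where it was not called, it turned to -0.21 with label style as a term and to -0.33 among lower-case labels, and ran from -0.10 to 0.39 with 1 library left out. Other uncalled differences near 0 also changed sign when 1 library was left out: Ntf3 from -0.0918 to 0.22 and Ntrk3 from -0.21 to 0.0287 between CB1R KO and WT bleomycin, and Sort1 from -0.0597 to 0.0221 between CB1R KO bleomycin and control, where limma on log2(TPM + 1) and on log2(TPM + 0.1) gave 0.0553 and 0.0558. Ngfr in WT bleomycin against control was called at 0.57 when at least 10 counts in every library were required, and ran from 0.45 to 0.70 with 1 library left out. The number of list genes called between CB1R KO and WT bleomycin was 4 as reported, 10 with DESeq2, 2 with edgeR on the 2 groups, 0 with edgeR among lower-case labels and 0 to 8 with 1 library left out. The cause of these shifts was not tested, and the last 3 of these settings use fewer libraries. Ntf3 kept its calls against control in all 24 alternatives. Depth limits Ntf3 and Ngfr most, which had as few as 10 and 19.1 estimated counts in a library.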
